A study of Mus musculus with 8 samples.

Results

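The genes described are the nuclear genes for proteins of the mitochondrial ribosome, taken as the protein-coding genes in the counts whose mouse symbol begins with Mrpl or Mrps followed by a digit, with symbols ending in -ps left out. This gave 78 of the 39056 listed genes, 49 of them named Mrpl (for the large subunit) and 29 named Mrps (for the small subunit). Genes are grouped here by name, which does not always match the subunit, as for Mrps18a and Mrps36 below. Poly-A RNA was sequenced from 4 HVCN1 null hearts and 4 WT hearts, 1 library per heart. The mice were male and 3 months old, and the WT mice were of the C57BL/6 background. HVCN1 (also called Hv1) is a voltage-gated proton channel, and the HVCN1 null mice lack it in all tissues, not in the heart alone. The HVCN1 null hearts are numbered 1 to 4 and the WT hearts 5 to 8. The labels give the tissue as heart and do not say whether the atria were taken with it, and in such bulk samples fewer cells of a type and less RNA per cell cannot be told apart.

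Mitochondria keep a ribosome of their own, which translates the mRNAs of the mitochondrial genome into core subunits of the respiratory chain and of ATP synthase. Its rRNAs are encoded in the mitochondrial genome, whereas all of its proteins are encoded in the nucleus, translated in the cytosol and imported. Some of these proteins have counterparts in the bacterial ribosome and others are found only in mitochondria. Heart muscle is rich in mitochondria, and inherited defects of several of these proteins are known to cause cardiomyopathy.

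No mitochondrial ribosomal protein gene was called different between HVCN1 null and WT hearts. Of the 78 genes, 77 passed the filter on low counts and 0 of these 77 had an adjusted p under 0.05 in edgeR's quasi-likelihood test with Benjamini-Hochberg adjustment over 14796 genes. Over all genes tested, 169 were called, which is 1.14%. At an unadjusted p under 0.05 there was 1 gene of 77 (Mrps5), against 11.0% of all genes tested. Log2 fold changes of HVCN1 null over WT ran from -0.24 to 0.16, with a median of -0.05 beside -0.01 over all genes tested. By sign alone 21 genes were above 0 and 56 below. In 0 of 77 genes did all 4 HVCN1 null hearts lie above or below all 4 WT hearts, whereas 3.45% of all genes tested were lower and 3.60% higher without overlap. The sign of the median turned when HVCN1 null heart 1 (0.020) or WT heart 5 (0.012) was left out. Without WT heart 7 the median was -0.13 and 8 members lay lower in HVCN1 null hearts without overlap (10.4%, beside 5.56% of all genes lower and 5.69% higher in that setting), still with 0 called. WT heart 7 was the lowest WT heart for 75 of 77 members, against 29.7% of all genes tested. Leaving it out therefore favours members lying lower, and these shares are not compared on equal terms. With library sizes set to the summed counts of the family, 2 members (Mrpl15 and Mrps5) lay lower without overlap, which is 2.60% beside 1.65% of all genes lower and 2.45% higher.

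The confidence intervals put narrow limits on these differences. The 77 genes had between 3992 (Mrps18c) and 69597 (Mrpl42) counts over the 8 hearts. The SE of the log2 fold change did not follow this order: it was 0.12 for Mrpl42 and 0.10 for Mrps10, which had 4713 counts. The 95% confidence interval of the log2 fold change lay within 0.5 on either side of 0 for all 77 genes, and for 56.5% of all genes tested. All genes tested include many with far fewer counts, and the share among genes of similar level was not computed. The family is therefore not shown to be bounded more tightly than other genes of its level. The interval of Mrps5 reached lowest, to -0.477, and that of Mrpl54 reached highest, to 0.477.

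**Figure D1:**
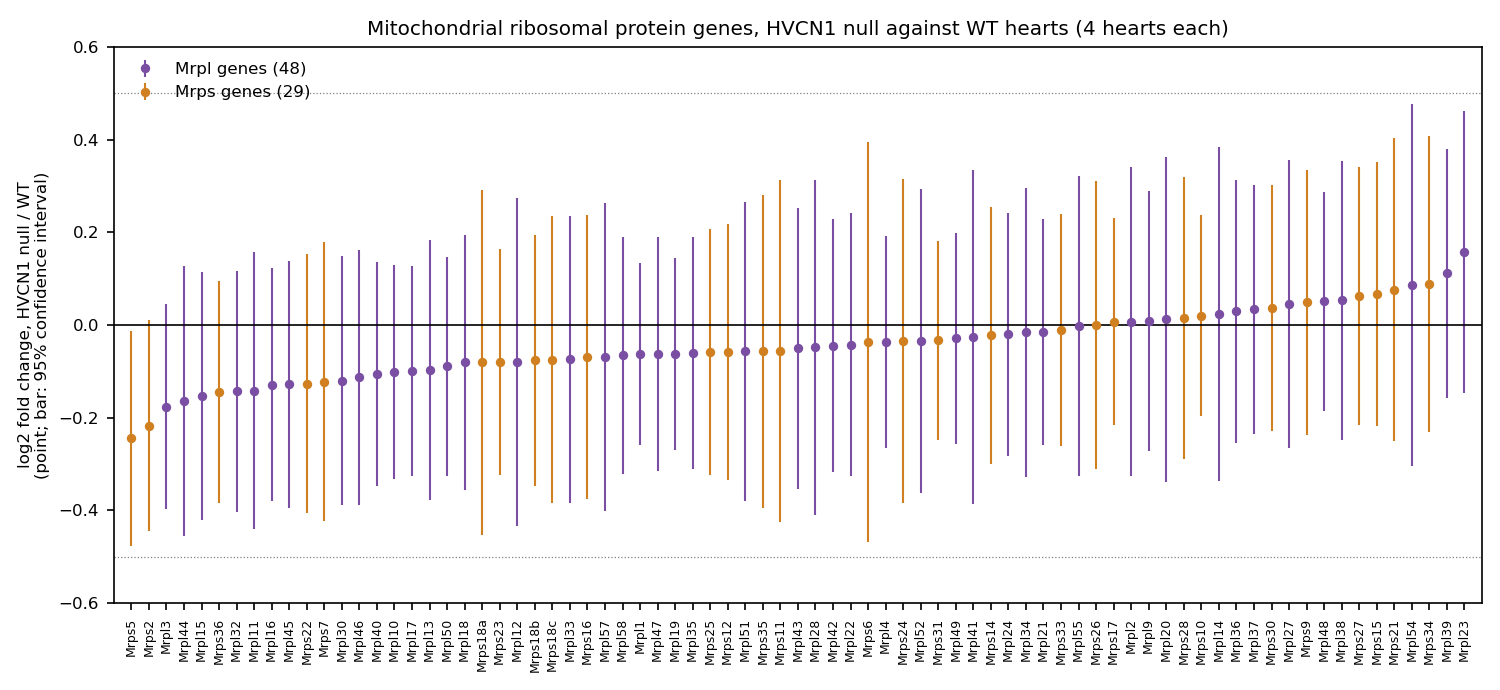
Log2 fold change of HVCN1 null over WT hearts (y axis) for the 77 tested mitochondrial ribosomal protein genes (x axis, ordered by fold change), with 95% confidence intervals as bars and Mrpl and Mrps genes in 2 colours. Points run from -0.24 (Mrps5) to 0.16 (Mrpl23), and each bar stays within the dotted lines at 0.5 on either side of 0.

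Among small subunit genes, Mrps5 had the smallest p. Mrps5 (ENSMUSG00000027374, chr2:127587222-127606829, plus strand, GRCm38) encodes a protein with a bacterial counterpart near the decoding site. Its CPM values (counts per 1000000 counts, TMM-scaled) were 25.7, 30.1, 34.0 and 34.4 in HVCN1 null hearts 1 to 4, against 39.3, 37.8, 33.3 and 36.8 in WT hearts 5 to 8. The groups overlapped only through WT heart 7, which lay below HVCN1 null hearts 3 and 4. The log2 fold change was -0.24 (SE 0.10, adjusted p = 0.42 by edgeR's quasi-likelihood test). Mrps2, whose protein also has a bacterial counterpart, had 29.7, 27.4, 28.1 and 32.2 CPM in HVCN1 null hearts and 29.6, 37.9, 31.2 and 38.0 CPM in WT hearts. WT hearts 6 and 8 were above the other 6 hearts, and the log2 fold change of Mrps2 was -0.22 (SE 0.10, adjusted p = 0.48).

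Mrps36 was put in the ribosome by its name, and its protein was later recognised as a subunit of the 2-oxoglutarate dehydrogenase complex of the citric acid cycle. Its CPM values were 36.0, 42.0, 44.0 and 47.7 across the HVCN1 null hearts, against 51.6, 50.0, 41.4 and 44.6 in WT hearts, and its log2 fold change was -0.14 (SE 0.11, adjusted p = 0.75 by edgeR's quasi-likelihood test). The small subunit genes with a fold change above 0 and the smallest p were Mrps34 (0.09), Mrps15 (0.07), Mrps21 (0.08) and Mrps27 (0.06), on the log2 scale. Mrps27 encodes a pentatricopeptide repeat protein and Mrps34 a protein that the small subunit needs for its stability. Mrps36 had 42.4 ± 4.91 CPM in HVCN1 null and 46.9 ± 4.74 CPM in WT hearts (mean ± SD of 4 hearts each), a difference close to the SD. In Mrps34, Mrps15, Mrps21 and Mrps27 the means of the groups differed by less than the SD of either group. Mrps34, for example, ran from 51.0 to 65.6 CPM in HVCN1 null hearts and from 40.9 to 62.4 CPM in WT hearts.

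Mrps18a, Mrps18b and Mrps18c are paralogs that descend from a bacterial S18-like protein, and the product of Mrps18a is found in the large subunit in spite of its name. Their log2 fold changes were -0.08, -0.08 and -0.07, with SE 0.17, 0.12 and 0.14. Mrps18a had 54.2 ± 7.91 CPM in HVCN1 null and 57.3 ± 12.4 CPM in WT hearts (mean ± SD of 4 hearts each), Mrps18b 18.8 ± 2.01 and 19.8 ± 2.84 CPM, and Mrps18c 14.3 ± 2.20 and 15.1 ± 2.20 CPM. Each pair of means differed by less than 1 SD. Mrps17 (chr5:129715497-129722556) is the only gene of the family within 20 Mb of Hvcn1, at 7.51 Mb. Its CPM values were 27.9, 29.5, 34.5 and 33.4 across the HVCN1 null hearts, against 34.0, 32.6, 26.8 and 31.2 in WT hearts, with a log2 fold change of 0.01 (SE 0.10).

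Among large subunit genes, Mrpl23 stood furthest above 0. Mrpl23 (ENSMUSG00000037772, chr7:142532686-142540747, plus strand, GRCm38) encodes a protein at the exit of the peptide tunnel. It had 32.9, 39.9, 46.7 and 45.5 CPM in HVCN1 null hearts and 45.3, 35.0, 31.7 and 36.1 CPM in WT hearts. HVCN1 null hearts 3 and 4 and WT heart 5 were high and the groups overlapped, with a log2 fold change of 0.16 (SE 0.14, adjusted p = 0.81 by edgeR's quasi-likelihood test). Mrpl39, whose protein has no bacterial counterpart, followed with 0.11 (SE 0.12), Mrpl54 with 0.09 (SE 0.18) and Mrpl48 with 0.05 (SE 0.11).

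Below 0, the large subunit genes with the smallest p were Mrpl3, Mrpl15, Mrpl44, Mrpl32 and Mrpl16, with log2 fold changes of -0.18, -0.15, -0.16, -0.14 and -0.13 and adjusted p between 0.60 and 0.81. Mrpl3 encodes a protein near the peptidyl transferase centre, and Mrpl32 one that is cleaved by the mitochondrial m-AAA protease before it is built in. Mrpl3 had 61.2, 63.0, 66.0 and 68.8 CPM in HVCN1 null hearts and 73.4, 80.2, 61.4 and 77.8 CPM in WT hearts. WT hearts 5, 6 and 8 were above all 4 HVCN1 null hearts, and WT heart 7 was below 3 of them. Mrpl12, a protein of the stalk that recruits translation factors and that has also been reported to bind the mitochondrial RNA polymerase, had 157 ± 26.8 CPM in HVCN1 null and 165 ± 29.6 CPM in WT hearts (mean ± SD of 4 hearts each), a log2 fold change of -0.08 (SE 0.16).

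The larger differences were between hearts of the same group, and they were shared by nearly all of the genes. The log2 CPM of each gene was set against its own mean over the 8 hearts, and the median of these deviations over the 77 genes was -0.22, -0.11, 0.11 and 0.14 in HVCN1 null hearts 1 to 4, against 0.13, 0.14, -0.26 and 0.08 in WT hearts 5 to 8. WT heart 7 was the lowest WT heart for 75 of the 77 genes, and HVCN1 null heart 1 was the lowest HVCN1 null heart for 59. Over all genes tested, these hearts were lowest in their group for 29.7% and 27.2%. HVCN1 null heart 4 was the highest of its group for 49 genes and HVCN1 null heart 3 for 26. The median SD of a gene's log2 CPM over the 8 hearts was 0.191, and it was 0.0939 after the median deviation of each heart was subtracted. The SD fell for 72 of the 77 genes. Among 6634 genes in the same range of mean level (14.7 to 257 CPM), the median SD before subtraction was 0.161.

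**Figure D2:**
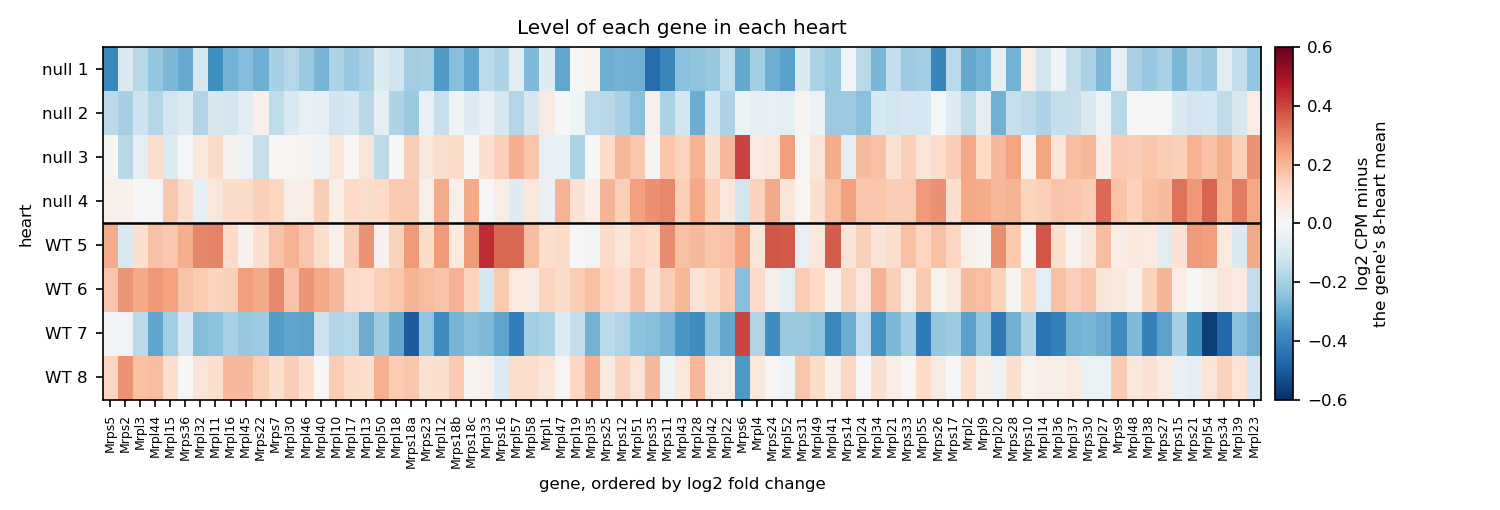
Log2 CPM minus the gene's own mean over 8 hearts (colour, from -0.6 to 0.6) for the 77 tested genes (columns, ordered by log2 fold change) in the 4 HVCN1 null and 4 WT hearts (rows). The rows of HVCN1 null hearts 1 and 2 and of WT heart 7 are blue nearly throughout, with medians of -0.22, -0.11 and -0.26, and Mrps6 is red in WT heart 7.

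Some other gene lists deviated the same way in HVCN1 null heart 1 and WT heart 7, and others did not. The median deviation of 84 nuclear respiratory chain subunit genes was -0.24 in HVCN1 null heart 1 and -0.34 in WT heart 7, and that of 8 cardiomyocyte marker genes was -0.24 and -0.22. The respiratory chain list, here and below, includes nuclear genes of ATP synthase. The summed CPM of these cardiomyocyte markers was between 54262 and 70543 in HVCN1 null hearts and between 57759 and 69821 in WT hearts, lowest in HVCN1 null heart 1 and, among WT hearts, in WT heart 7. Fibroblast markers deviated the other way, with median deviations of 0.31 and 0.47 over 8 genes, and their summed CPM of 1555 in HVCN1 null heart 1 and 1629 in WT heart 7 was the highest of each group. The median deviation of 8 smooth muscle and pericyte markers was 0.38 in HVCN1 null heart 1 and -0.09 in WT heart 7. In the same order it was 0.20 and -0.14 for 8 endothelial markers and -0.14 and 0.33 for 8 macrophage markers. For 74 cytosolic ribosomal protein genes it was -0.27 and -0.17. The summed CPM of 8 atrial marker genes was 373, 4729, 3810 and 387 in HVCN1 null hearts and 3425, 191, 8707 and 140 in WT hearts. WT heart 7 was therefore the heart with the most atrial RNA, but HVCN1 null heart 1 was among the 4 with little. The part of these cell types in the shared deviation was not tested.

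Mrps6 departed furthest from this shared pattern. Its SD rose when the median deviation was subtracted, as did that of Mrps2, Mrpl19, Mrpl1 and Mrps10, and it was with Mrps2 the gene for which WT heart 7 was not the lowest WT heart (for Mrps2 this was WT heart 5, with 29.6 CPM against 31.2). Mrps6 encodes a small subunit protein with a bacterial counterpart and lies on chromosome 16 (chr16:92058270-92112227, plus strand, GRCm38). Its CPM values were 12.8, 15.4, 21.0 and 14.6 across the HVCN1 null hearts, against 18.7, 13.3, 20.8 and 12.5 in WT hearts. It was highest among WT hearts in WT heart 7, where nearly all other genes of the family were lowest, and its SD after subtraction of the family's median was the largest (0.368). The 4 hearts with summed atrial CPM of 3425 or more had 15.4 to 21.0 CPM of Mrps6, and the other 4 had 12.5 to 14.6 CPM. On the same strand Mrps6 shares 19.9% of its exon bases with Gm49711, a gene of read-through transcripts that was not analysed here, and 10.4% with Slc5a3, a sodium and myo-inositol cotransporter gene, so reads there cannot be assigned to one of them. The log2 fold change of Mrps6 between the groups was -0.04 (SE 0.19).

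In sum over the 78 genes, the share of all counts was 0.322%, 0.348%, 0.400% and 0.402% in HVCN1 null hearts and 0.413%, 0.383%, 0.324% and 0.353% in WT hearts. The means were 0.368% ± 0.0397 and 0.368% ± 0.0385 (mean ± SD of 4 hearts each) and the ranges of the groups nearly coincided. Mrpl genes had 2.16 ± 0.0178 times the counts of Mrps genes in HVCN1 null hearts and 2.18 ± 0.0276 times in WT hearts. The balance of Mrpl and Mrps mRNA thus varied far less between hearts than the summed level did.

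Relative to the respiratory chain list, which includes ATP synthase genes, the groups did not overlap. Per 100 counts of nuclear respiratory chain subunit genes, the family had 8.90, 8.55, 8.41 and 8.05 counts in HVCN1 null hearts and 8.99, 9.35, 9.04 and 8.95 in WT hearts. The means were 8.48 ± 0.351 and 9.08 ± 0.183 (mean ± SD of 4 hearts each), and the highest HVCN1 null heart was just below the lowest WT heart. No test was applied to this ratio, which was formed after the values were seen. On the level of genes, 72 of 84 tested respiratory chain genes had a fold change above 0 (median 0.05 on the log2 scale), against 21 of 77 in the family (median -0.05). These signs come from the same counts as the ratio and are not separate support for it. Genes of the family moved together between hearts, so a count of genes by sign is not a count of replicates. In neither list was any gene called.

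**Figure D3:**
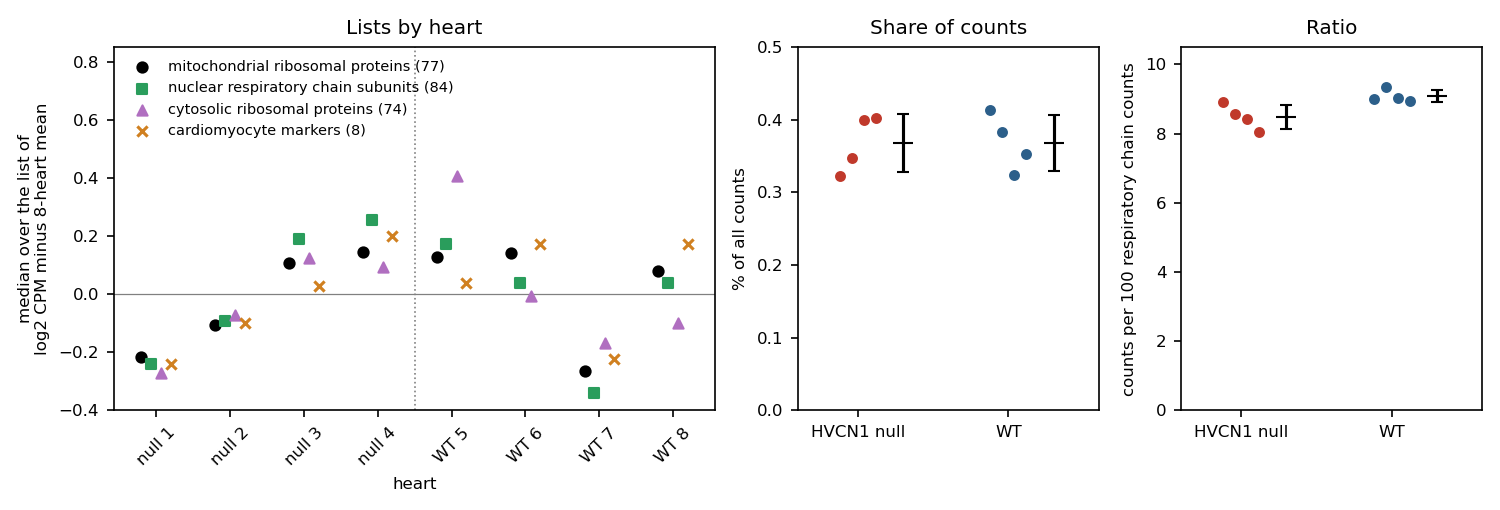
Left, median over 4 gene lists of log2 CPM minus the 8-heart mean, by heart; middle, share of all counts taken by the 78 mitochondrial ribosomal protein genes; right, their counts per 100 counts of nuclear respiratory chain subunit genes (points are hearts, bars mean and SD of 4). The respiratory chain list includes ATP synthase genes. The shares overlap between the groups, and the ratios lie between 8.05 and 8.90 in HVCN1 null and between 8.95 and 9.35 in WT hearts.

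Levels within the family were compared per length, as CPM per kb of merged exons, over the 8 hearts. The highest were Mrpl12 with 105 ± 17.3 (SD, n = 8), Mrps21 with 94.4 ± 14.6, Mrpl34 with 85.2 ± 12.1, Mrps23 with 77.0 ± 7.82 and Mrpl28 with 73.4 ± 12.5 CPM per kb. Each of these neighbours differed by less than the SD of the higher one. The lowest of the tested genes were Mrps22 with 3.84 ± 0.495, Mrpl33 with 3.73 ± 0.588, Mrpl47 with 3.63 ± 0.384 and Mrps10 with 2.16 ± 0.173 CPM per kb. Only Mrps10 stood apart from the gene next to it by more than the SD.

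The order depended on the length used. Per kb of the longest coding transcript Mrpl42 came first, with 386 CPM per kb, where it was sixth of 78 per kb of merged exons with 69.8. Mrpl33 moved from 75 to 17 in the order, Mrpl23 from 58 to 21, Mrpl13 from 65 to 29 and Mrps10 from 77 to 56, because their merged exons hold long stretches outside that transcript. Of the 10 highest genes, 8 were among the 10 highest under both lengths. The 10 highest were the same genes in HVCN1 null hearts and in WT hearts.

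**Figure D4:**
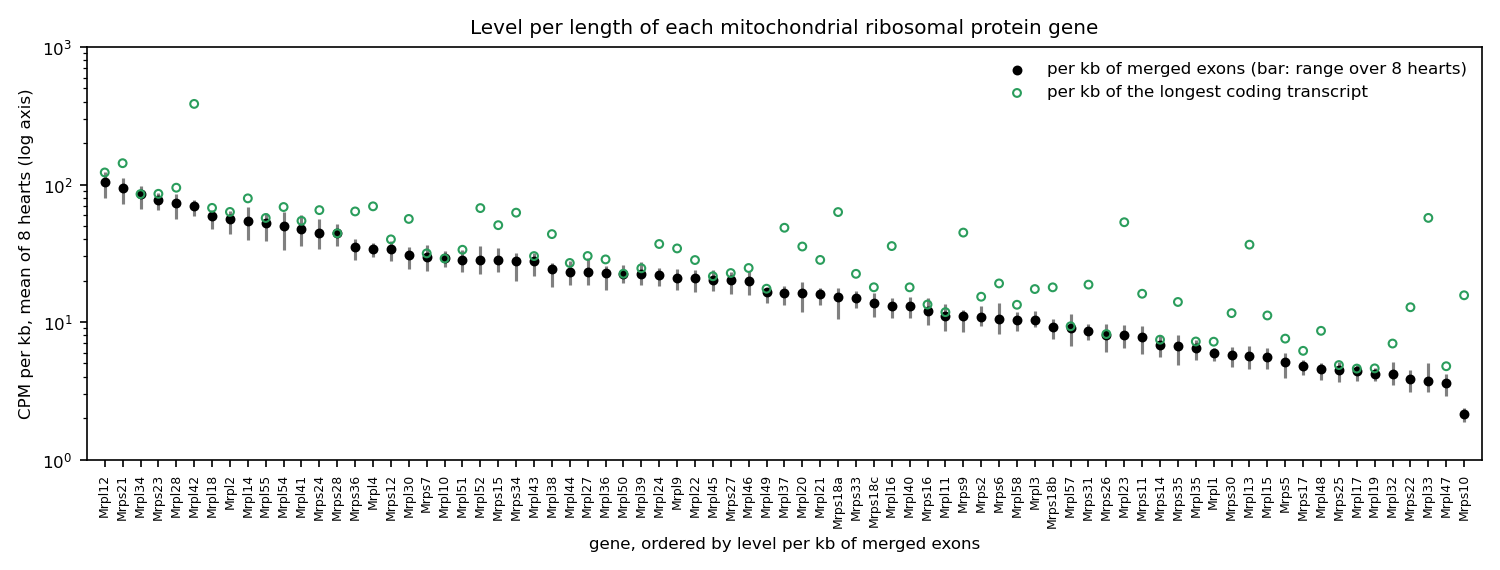
Mean CPM per kb over 8 hearts (log axis) of the 77 tested genes, per kb of merged exons (black, with the range over hearts) and per kb of the longest coding transcript (green circles). Levels per kb of merged exons run from 105 for Mrpl12 to 2.16 for Mrps10, and Mrpl42 is highest, at 386, per kb of the longest coding transcript.

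Mrpl53, the member that failed the filter, had 1 count in all 8 hearts. In the annotation 88.0% of its exon bases lie in a longer gene of the same strand, Gm42688, which had 98 counts in HVCN1 null and 130 in WT hearts, so the level of Mrpl53 is not known from these counts. For Mrps34, 37.0% of the exon bases are shared with Nme3 on the same strand, and Nme3 had 0 counts in all hearts. Mrps18c shares 23.2% of its exon bases with Gm43511, also on the same strand, so reads there cannot be assigned to one of them. On the opposite strand, 69.8% of the exon bases of Mrps25 are shared with Nr2c2 and 63.4% of those of Mrps34 with Mapk8ip3. Other members share smaller parts with a gene of the opposite strand, among them Mrps18b with Gm16279 (30.5%). The library kit keeps the strand, but the setting used in counting is not given in the sources used here, so these partners may share reads.

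Although the genes themselves were not called, pseudogene copies of Mrpl48 and Mrps5 were called higher in HVCN1 null hearts. Processed pseudogenes are copies of an mRNA inserted elsewhere in the genome. A search with BLAST found 17 such copies of 14 members at 95% identity or more over at least 80% of the copy, and their counts were 0% to 3.7% of those of the member. Mrpl48-ps and Gm13328 were singled out after their values were seen. To show how little the copies differ from their members, the 100 coding bases with the most mismatches are printed 5′ to 3′ in lower case, with the bases that differ in capitals. The stretch of Mrpl48-ps is chr4:88599362-88599461 (minus strand, GRCm38) and that of Gm13328 is chr2:20235488-20235587 (minus strand). Those of Mrpl48 (chr7, minus strand) and Mrps5 (chr2, plus strand) are bases 442 to 541 and 964 to 1063 of the longest transcript and cross introns in the genome.
Mrpl48: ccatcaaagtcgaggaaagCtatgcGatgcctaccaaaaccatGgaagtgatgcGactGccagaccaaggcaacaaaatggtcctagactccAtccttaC
Mrpl48-ps: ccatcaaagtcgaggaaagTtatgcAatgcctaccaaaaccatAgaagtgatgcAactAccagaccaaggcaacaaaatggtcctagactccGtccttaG
Mrps5: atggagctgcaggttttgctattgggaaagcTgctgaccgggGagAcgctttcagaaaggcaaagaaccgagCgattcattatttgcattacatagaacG
Gm13328: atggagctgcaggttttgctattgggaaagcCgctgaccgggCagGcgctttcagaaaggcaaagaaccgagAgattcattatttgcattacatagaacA

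Mrpl48-ps matches Mrpl48 with 12 mismatches in 636 bases (98.1% identity), of which 7 fall in the printed stretch. It had 65, 85, 82 and 102 counts in HVCN1 null hearts and 2, 1, 4 and 3 in WT hearts. The groups were far apart, with a log2 fold change of 5.08 (SE 0.36, adjusted p = 5.11e-05 by edgeR's quasi-likelihood test). Mrpl48 itself had 32.2, 37.0, 40.8 and 40.6 CPM in HVCN1 null hearts and 38.5, 37.5, 30.7 and 38.6 CPM in WT hearts. Its log2 fold change of 0.05 was not called. Counts of the copy were 3.44% of those of Mrpl48 over all 8 hearts together. The copy had 2.56 ± 0.537 CPM in HVCN1 null and 0.0721 ± 0.0372 CPM in WT hearts (mean ± SD of 4 hearts each). Mrpl48 had means of 37.6 and 36.3 CPM in the same order, so the share of the copy was larger in HVCN1 null hearts. With so few mismatches, reads of a copy and of its member may be assigned to each other, which was not tested.

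Gm13328 matches Mrps5 at 98.4% identity over 1019 aligned columns. It had 36, 30, 23 and 102 counts in HVCN1 null hearts and 5, 3, 5 and 3 in WT hearts, with HVCN1 null heart 4 far above the other 3. The log2 fold change was 3.59 (SE 0.51, adjusted p = 0.0086 by edgeR's quasi-likelihood test). Within the 4 hearts rich in atrial RNA it was 2.65 (adjusted p = 0.25) and within the 4 others 4.32 (adjusted p = 0.067), so that this call was lost with 2 hearts a group. Mrps5, by contrast, was on the lower side in HVCN1 null hearts (-0.24), and with the counts of the copies added to their members no gene of the family was called. Of the 7 copies that passed the filter, the other 5 were not called, among them Mrpl23-ps1 with 222 counts in HVCN1 null and 171 in WT hearts. Mrpl23-ps1 is identical to Mrpl23 over 507 aligned bases, which are 68.9% of the longest Mrpl23 transcript. Reads there cannot be assigned to one of them, which limits the values given for both. Over all genes tested, 1.14% were called, and 7 copies are too few to compare with that share.

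Many genes of the family are arranged head to head with another gene. Of the 77 tested genes, 33 (42.9%) have the 5′ end of a protein-coding gene of the opposite strand within 1000 bases of their own, the genes running away from each other, against 15.0% of the 13638 protein-coding genes tested. Mrps11 and Mrpl46 are neighbours of each other on chromosome 7. Other neighbours also serve mitochondria, such as Sars2, the mitochondrial seryl-tRNA synthetase, beside Mrps12, Twnk, the helicase of the mitochondrial genome, beside Mrpl43, and Ndufs6 and Ndufb5, subunits of complex I, beside Mrpl36 and Mrpl47. Of the neighbours 29 were tested and 1 was called, beside 1.14% of all genes tested. A single call is not read as a feature of the neighbours.

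The called neighbour was Ppp1r10, whose 5′ end lies 45 bases from that of Mrps18b in the GENCODE annotation, by which all neighbours were found. Ppp1r10 (chr17:35916434-35932283, plus strand, GRCm38) encodes a regulatory subunit of protein phosphatase 1 found in the nucleus. It had 48.2, 43.0, 46.5 and 36.5 CPM in HVCN1 null hearts and 24.2, 20.6, 22.7 and 28.6 CPM in WT hearts. All HVCN1 null hearts were above all WT hearts, with a log2 fold change of 0.86 (SE 0.12, adjusted p = 0.0078 by edgeR's quasi-likelihood test). Mrps18b on the other side of the same start region had 16.0, 18.7, 20.7 and 19.6 CPM in HVCN1 null hearts and 19.9, 22.1, 15.8 and 21.4 CPM in WT hearts, overlapping throughout. Beside Mrpl44, Wdfy1 had 12.8, 12.9, 11.7 and 6.50 CPM in HVCN1 null hearts and 4.99, 5.69, 5.90 and 5.91 CPM in WT hearts. Its groups did not overlap, but with a log2 fold change of 0.97 (SE 0.20) the adjusted p was 0.053 and it was not called. Both neighbours were named after their values were seen.

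**Figure D5:**
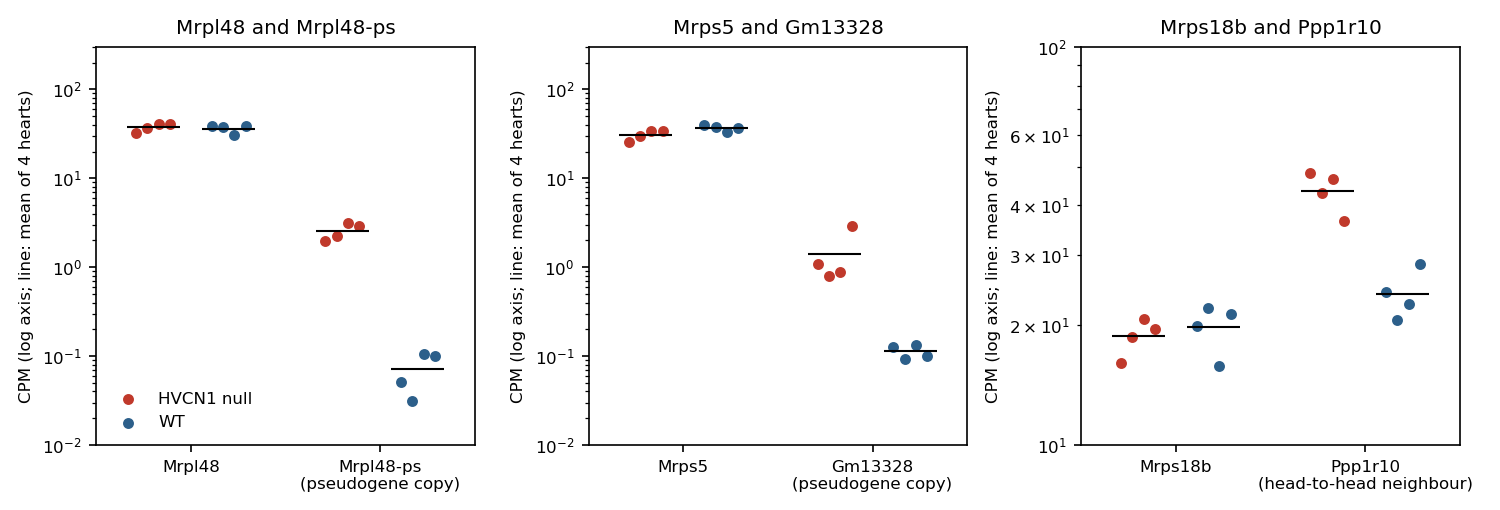
CPM per heart (log axis; HVCN1 null red, WT blue, line at the mean of 4) for Mrpl48 and Mrps5 beside their pseudogene copies and for Mrps18b beside its head-to-head neighbour Ppp1r10. The members overlap between the groups in all 3 panels, whereas Mrpl48-ps, Gm13328 and Ppp1r10 are higher in each HVCN1 null heart than in any WT heart.

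The start regions of the family hold some motifs of factors known for genes of mitochondrial proteins. RefSeq windows (GRCm38.p6) of 300 bases, from 250 before to 50 after a start site, matched 69 of the 78 symbols, and 68 of these belonged to tested genes. With both strands searched, the ETS and GABP core CCGGAAG was present in 33.8% of these 68 windows, against 17.4% of 10675 windows of tested protein-coding genes. The YY1 letters AAGATGGC were in 17.6% against 4.5%, and the NRF1 letters GCGCATGCG in 10.3% against 3.6%. The CCAAT box (CCAAT) was in 38.2% against 38.3%, the CRE letters TGACGTCA in 2.9% against 3.1%, the GC box GGGCGG in 50.0% against 63.7%, and TATAAA in 5.9% against 7.3%. None of these letter strings contains another. A match describes the letters in the window and is not evidence of binding.

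The windows of Mrps18b and Mrps12 are printed because each holds the RefSeq start site of the member and the GENCODE 5′ end of the gene beside it, for the first with 1 of them called and for the second with both serving mitochondrial translation. The first is chr17:35916391-35916690 and the second chr7:28741772-28742071, both read 5′ to 3′ on the minus strand in the direction of the member, with NRF1, ETS and GABP, and YY1 letters in capitals. The RefSeq start site is base 251 of each. The GENCODE 5′ end of Ppp1r10 is at base 257, which is 6 bases past the RefSeq start of Mrps18b, so the pair overlaps slightly by that start. By GENCODE, Mrps18b starts at base 302, just beyond the window. The GENCODE 5′ end of Sars2 is at base 80 and that of Mrps12 at base 252.
Mrps18b: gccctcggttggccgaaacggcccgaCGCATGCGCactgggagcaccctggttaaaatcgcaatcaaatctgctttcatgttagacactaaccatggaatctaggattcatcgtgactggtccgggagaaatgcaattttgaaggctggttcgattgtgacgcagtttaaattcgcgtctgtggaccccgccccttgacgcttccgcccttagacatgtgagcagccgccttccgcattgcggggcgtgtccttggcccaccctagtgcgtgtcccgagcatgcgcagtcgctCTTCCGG
Mrps12: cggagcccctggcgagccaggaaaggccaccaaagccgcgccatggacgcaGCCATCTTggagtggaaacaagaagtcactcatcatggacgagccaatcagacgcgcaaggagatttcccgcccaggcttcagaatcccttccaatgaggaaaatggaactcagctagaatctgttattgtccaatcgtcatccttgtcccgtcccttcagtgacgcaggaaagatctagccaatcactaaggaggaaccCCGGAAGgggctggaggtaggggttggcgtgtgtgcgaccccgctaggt

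In the Mrps18b window the NRF1 letters are at bases 27 to 35 and the ETS and GABP core at bases 294 to 300, both on the other strand. In the Mrps12 window the YY1 letters are at bases 52 to 59 on the other strand and the ETS and GABP core at bases 252 to 258. Mrps12 encodes a decoding site protein. It had 34.5 ± 5.73 CPM in HVCN1 null and 35.9 ± 3.45 CPM in WT hearts (mean ± SD of 4 hearts each), and Sars2 had 12.1 ± 1.14 and 11.2 ± 0.560 CPM, so that neither member of this pair was called.

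Genes that work with the mitochondrial ribosome were examined as lists, and edgeR's quasi-likelihood test called 0 of their 85 tested genes. At an unadjusted p under 0.05 there were 9 (10.6%), beside 11.0% of all genes tested. Assembly and rRNA modification factors had 5 of 23 genes above 0 and 18 below (median -0.10 on the log2 scale). Translation factors had 2 of 13 above and 11 below (median -0.06), and the 5 ribosomal proteins under other symbols 1 above and 4 below (median -0.14). Mitochondrial aminoacyl-tRNA synthetases had 8 of 20 above 0 (median -0.03), mitochondrial transcription and mRNA binding genes 4 of 13 (median -0.04) and regulators of nuclear mitochondrial genes 7 of 11 (median 0.02). The lists are to be read beside the median of -0.01 over all genes tested.

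The groups did not overlap in 3 of these 85 genes (3.5%), beside 7.06% of all genes tested, so these genes are given as values and not as a feature of the lists. Pprc1, a coactivator related to PGC-1, had 31.0, 25.1, 26.4 and 22.0 CPM in HVCN1 null hearts and 19.0, 19.6, 20.4 and 21.4 CPM in WT hearts. Its log2 fold change was 0.38 (SE 0.11, adjusted p = 0.16 by edgeR's quasi-likelihood test). By DESeq2 it was the 1 gene of the lists that was called (adjusted p = 0.045). Mtfmt, which formylates the initiator methionyl-tRNA of mitochondria, had 4.68, 6.26, 5.13 and 6.25 CPM in HVCN1 null hearts and 7.92, 7.17, 6.96 and 7.16 CPM in WT hearts, with a log2 fold change of -0.39 (SE 0.13, adjusted p = 0.26). Nars2, the mitochondrial asparaginyl-tRNA synthetase, had 11.3 ± 0.407 CPM in HVCN1 null and 9.22 ± 1.52 CPM in WT hearts (mean ± SD of 4 hearts each, adjusted p = 0.41). The other 6 with an unadjusted p under 0.05 were Vars2 (0.25) and Polrmt (0.21) above 0, and Mterf1b (-0.82), Mtpap (-0.22), Taco1 (-0.34) and Myc (-0.75) below it, on the log2 scale.

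For comparison, 74 tested cytosolic ribosomal protein genes had 12 above 0 and 62 below (median -0.07 on the log2 scale), and the 13 mRNAs of the mitochondrial genome, the templates of the mitochondrial ribosome, had 2 above and 11 below (median -0.08). None of these genes was called. The mitochondrial mRNAs took 23.7% to 30.2% of the counts of a heart.

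Hvcn1, the deleted gene, had 16 counts in all in HVCN1 null hearts against 318 in WT hearts (log2 fold change -4.20, SE 0.38, edgeR adjusted p = 3.63e-04). Total counts were 25851255 to 38874640 per heart. Macrophage marker genes (8 of 8 with a fold change below 0) had a summed CPM of 195 to 258 in HVCN1 null and 222 to 315 in WT hearts, and erythroid marker genes (8 of 8 below 0) 1292 to 8395 and 3020 to 15235. Acta2, a smooth muscle gene, was the only marker called, and it was higher in HVCN1 null hearts (adjusted p = 0.047 by edgeR's quasi-likelihood test). Nothing in the labels or methods names a batch, and no pair of hearts of a group agreed within sampling noise.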

How the data were processed

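RNA of 8 hearts was sequenced by the authors after poly-A selection, aligned with STAR and counted per gene with featureCounts (versions not given in the sources used here). What the authors deposited are whole-number counts per gene, not normalized. The submitters' notes name mm10 and GRCm38, and the identifiers are of mouse genes, 99.5% of which matched GENCODE M21 on GRCm38.

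From these counts, CPM was computed with TMM scaling and log2 CPM with a prior count of 2, and genes were kept by filterByExpr and tested by the quasi-likelihood test of edgeR 4.0.16 (R 4.3.3). Alternatives were RLE or no scaling, library sizes without mitochondrial genes, 2 other filters, the likelihood ratio and exact tests of edgeR, DESeq2 1.42.0, voom of limma 3.58.1, an atrial covariate, an adjusted p under 0.01 and each heart left out. Total counts were between 25851255 and 38874640 per heart. Copies were found with BLAST 2.17.0, and motifs, neighbours and plots were made with Python 3.11.15, pandas 2.3.3 and matplotlib 3.10.9. Each heart is a separate animal.

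Genes named singly were those past the test, the 8 higher and 8 lower of smallest p, the 5 highest and 5 lowest per length, those not overlapping, the Mrps18 paralogs, Mrpl12 and Mrps36, members within 20 Mb of Hvcn1, the largest near-identical copies, and genes of the lists past the test. List genes with an unadjusted p under 0.05 were named after their values were seen. The members, lists and alternatives were chosen with earlier results of these data known.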

Additional observations from a re-analysis of the deposited data

Results flagged for a closer look

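In 4 sets of 4 hearts, 1 heart stood apart from the other 3 by more than Dixon's 95% critical value for the gap over the range, a limit that chance passes in about 1 of 20 groups. WT heart 7 was low for Mrps34 (40.9 CPM, the other WT hearts 59.0 to 62.4), for Mrpl48 (30.7 CPM, the others 37.5 to 38.6) and for Mrps18a (38.8 CPM, the others 61.5 to 65.6). HVCN1 null heart 4 was high for the pseudogene Gm13328 (2.88 CPM, the others 0.803 to 1.08). Over all 77 tested genes of the family and both groups, 10 of 154 sets (6.5%) passed this limit.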

How the results depend on the processing

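No gene of the family was called in any of 23 other settings, in which 24 to 466 of all genes were called and at most 6 members had an unadjusted p under 0.05 (without WT heart 7). The settings chosen after seeing the data were library sizes set to the members' summed counts, pseudogene copies added to their members, and the hearts rich or poor in atrial RNA alone. The median log2 fold change of the members lay between -0.13 and 0.02 with each heart left out in turn, and the share of counts differed by -0.0151 to 0.0151 percentage points. Members without overlap between the groups numbered 0 to 8 with a heart left out: all 8 appeared without WT heart 7, all lower in HVCN1 null hearts, when 5.56% of all genes lay lower and 5.69% higher without overlap. They were Mrpl1, Mrpl3, Mrpl16, Mrpl30, Mrpl44, Mrpl46, Mrps5 and Mrps23. Leaving out this heart, the lowest WT heart for 75 of 77 members, favours that direction. With library sizes set to the members' summed counts there were 2, Mrpl15 and Mrps5, both lower. The lists' count of called genes was 1 with DESeq2 (Pprc1). The causes were not tested.

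Of 462 values of 21 named members under these settings, 24 had the opposite sign, none of them past the test. With a heart left out, Mrpl12 ran from -0.19 to 0.012, Mrpl48 from -0.017 to 0.12, Mrpl54 from -0.052 to 0.20, Mrps15 from -0.041 to 0.16, Mrps17 from -0.054 to 0.061, Mrps18a from -0.22 to 0.00095, Mrps18c from -0.17 to 0.012, Mrps21 from -0.017 to 0.19, Mrps27 from -0.019 to 0.15 and Mrps34 from -0.029 to 0.15, on the log2 scale. In the hearts rich in atrial RNA, Mrpl12 was at 0.0078, Mrpl44 at 0.015, Mrps18a at 0.043 and Mrps18b at 0.14. In those poor in it, Mrpl48 was at -0.049, Mrps17 at -0.043, Mrps27 at -0.11 and Mrps34 at -0.017. No paired analysis was possible because no label number is carried by hearts of both groups. Mrpl48-ps was called in all 22 settings run for it (4.86 to 5.34), with each heart left out Gm13328 was called (2.97 to 3.79), and Mrps5 kept its sign throughout (-0.30 to -0.16).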

Other observations

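When each member was expressed per 1000000 counts of the family, so that the shared deviation of a heart was removed, Mrps5 was lower in all 4 HVCN1 null hearts than in any WT heart, with 8536 ± 318 against 9890 ± 746 (SD, n = 4 each). The log2 fold change on this scale was -0.21 (SE 0.11), and the adjusted p of edgeR's quasi-likelihood test was 0.86. Mrpl23 was at 11319 ± 678 against 9903 ± 1101 (log2 fold change 0.19, SE 0.12), and its groups overlapped. Mrpl15 was also lower without overlap, by a small margin, with at most 12783 in HVCN1 null and at least 12802 in WT hearts (log2 fold change -0.11, SE 0.10, not called).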
